A study of Homo sapiens with 4 samples.

Results

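The urokinase and plasminogen activation system was described through 7 genes, chosen by name and by known function, of the 39259 genes in the expression table: PLAU, PLAT, PLAUR, S100A10, SERPINE2, SERPINB2 and LRP1. Earlier results of these data were known when they were chosen, so the counts of members called are not independent of the data. RNA was sequenced from MDA-MB-231, an established human triple-negative breast cancer cell line, in 4 libraries. The 2 libraries labelled WT came from the line without a named change, and the 2 libraries labelled KO came from the same line with a knockout of mdig (MINA53), a JmjC-domain protein encoded by RIOX2. Both groups were grown in DMEM/F-12 with 10% fetal bovine serum and 1% penicillin-streptomycin. The labels do not give the editing method, the number of clones behind the KO libraries, or separate cultures, so the p-values cover only how far apart these libraries lie, and that spread may be technical.

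Plasmin is a serine protease that degrades fibrin and matrix proteins, and it is made from the inactive plasminogen by an activator. PLAU (urokinase) acts mostly at the cell surface, bound to its receptor PLAUR, whereas PLAT (tissue-type activator) is best known for acting on fibrin. S100A10, in a complex with annexin A2, docks plasminogen at the membrane, the serpins SERPINE2 and SERPINB2 inhibit the activators, and LRP1 takes up complexes of activators with their inhibitors from the surface. High urokinase and urokinase receptor are long-known features of invasive breast cancer.

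The libraries held 45173267 (WT replicate 1), 22503981 (WT replicate 2), 48768932 (KO replicate 1) and 52163811 (KO replicate 2) fragments assigned to genes. The values are FPKM, which divide the fragments on a gene by its length in kilobases and by the library's assigned fragments, so levels can be compared between genes, and 3 fragments on a gene of 1 kb come to 0.0575 to 0.133 FPKM. The RNA of RIOX2 itself was not lower under the KO label (8.60 and 8.24 FPKM in WT, 9.23 and 9.82 in KO; log2 change 0.16, SE 0.060, limma adjusted p = 0.0546), and it was called higher in 8 of 16 alternative analyses (log2 change 0.12 to 0.22, adjusted p 0.0131 to 0.360). The table therefore does not check that label, and "KO" below means the libraries labelled so. VIM, a mesenchymal marker, stood at 2275 and 2394 FPKM in WT and at 2000 in each KO library (log2 change −0.22, limma adjusted p = 0.0154). Of the other markers chosen for the line, CD44 rose by 0.18 (limma adjusted p = 0.0415) and the keratin KRT18 fell by 0.19 (adjusted p = 0.0145). KRT8 and EGFR were not called, with log2 changes of 0.02 and 0.15. ESR1 and PGR, which define hormone receptor-positive disease, had 0 or 1 fragment in every library, and ERBB2, which encodes HER2, had 12.7 to 14.3 FPKM.

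Most of the tested members were called higher in the KO libraries, and none was called lower. Of the 7 members 6 reached a mean level of 1 FPKM and were tested, and of these 4 rose at an adjusted p under 0.05: PLAU, PLAT, S100A10 and LRP1. The same 4 were higher in all 16 alternative analyses. Among all 11716 tested genes 21.6% were called higher and 28.4% lower (49.9% in either direction), and of the called genes 43.2% were higher (55.3% under median-of-ratios scaling). The median log2 change of the 6 tested members was 0.56, against −0.04 over all tested genes. The values of the groups did not overlap for any of the 6 tested members, nor for SERPINB2, which was not tested. Among all tested genes the groups did not overlap for 77.5% (32.9% higher and 44.6% lower in KO). Levels were higher in KO for 5 members, SERPINB2 included, and lower for PLAUR and SERPINE2.

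**Figure D1:**
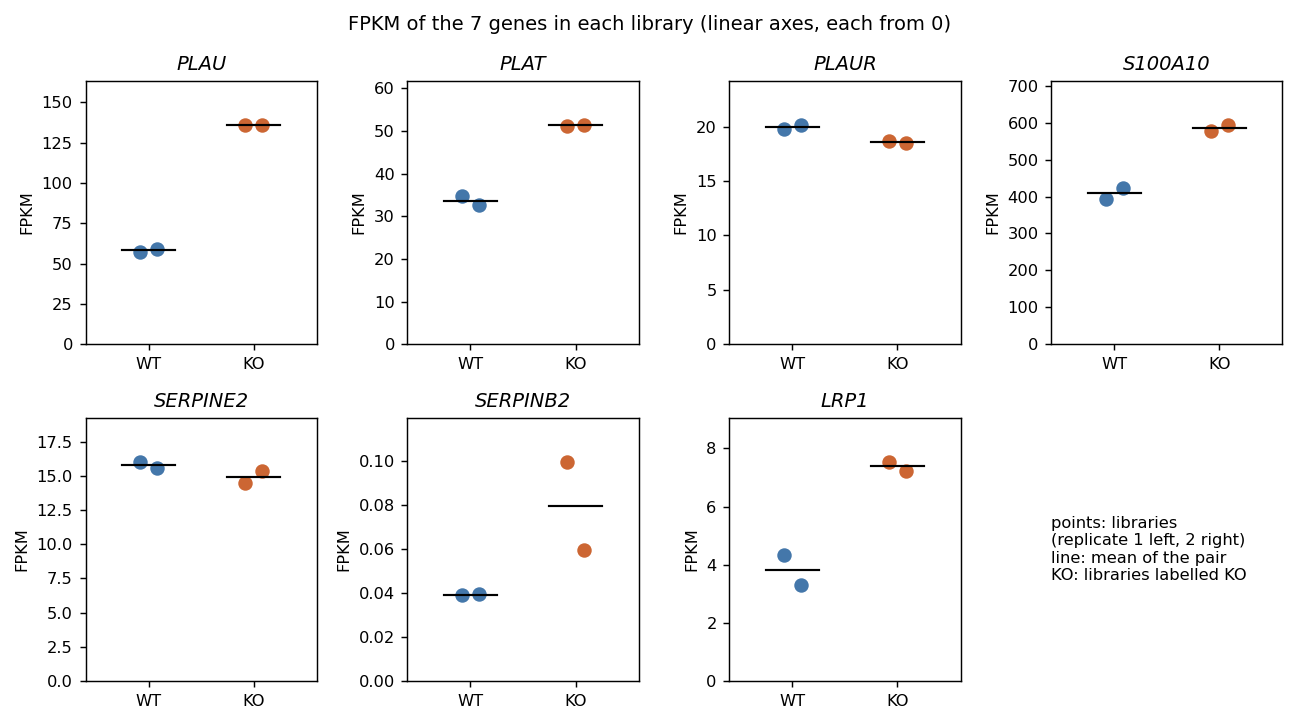
FPKM (vertical axes, linear and each starting at 0) of the 7 genes in the libraries labelled WT and KO, with 1 point per library and a bar at the group mean. The KO points of PLAU, at 136, lie above the WT points at 57.5 and 59.3, while those of PLAUR and SERPINE2 lie slightly under theirs.

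Both activators rose, PLAU with the largest change of the members. PLAU had 57.5 and 59.3 FPKM in the WT libraries and 136 in each KO library. The WT libraries lay close together and far under both KO libraries. The means were 58.4 ± 1.32 and 136 ± 0.105 FPKM (SD, n = 2 each), a 2.33-fold difference, resting on 7196, 3701, 18379 and 19637 fragments. On the log2(FPKM + 1) scale the change was 1.20 (SE 0.050, 95% interval 1.09 to 1.32, limma adjusted p = 3.18e-06). Only 56 of the tested genes, 0.478%, had a log2 change at least this high. Among tested genes ranked by FPKM, PLAU stood at percentile 91.8 in WT and 97.2 in KO.

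PLAT had 34.6 and 32.6 FPKM in WT and 51.2 and 51.4 in KO, again with both KO libraries above both WT libraries. The means were 33.6 ± 1.45 and 51.3 ± 0.160 FPKM (SD, n = 2 each), 1.53-fold apart. The log2 change was 0.60 (SE 0.055, 95% interval 0.47 to 0.72, limma adjusted p = 0.000114), and 3.55% of tested genes had a change at least as high. The 95% intervals of PLAU and PLAT did not overlap, and the difference between their changes was not tested. The ratio of PLAU to PLAT within a library was 1.66 and 1.82 in WT and 2.66 and 2.64 in KO.

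PLAUR, the receptor that holds urokinase at the surface, did not pass the test. Its level was 19.8 and 20.2 FPKM in WT and 18.7 and 18.5 in KO, and the KO libraries were the lower ones by a small margin. The log2 change was −0.10 (SE 0.052, 95% interval −0.22 to 0.02, limma adjusted p = 0.146), so a rise of the size seen for PLAT or PLAU lies outside the interval. The ratio of PLAU to PLAUR within a library was 2.90 and 2.94 in WT and 7.29 and 7.33 in KO. Urokinase RNA thus stood further above receptor RNA in both KO libraries.

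S100A10, the plasminogen-docking subunit, was the most abundant member in every library. It had 394 and 424 FPKM in WT and 578 and 594 in KO. Both KO libraries were above both WT libraries, at means of 409 ± 21.5 and 586 ± 11.5 FPKM (SD, n = 2 each), 1.43-fold apart. The log2 change was 0.52 (SE 0.058, 95% interval 0.39 to 0.65, limma adjusted p = 0.000272), and 5.08% of tested genes had one at least as high.

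The inhibitors showed no called change. SERPINE2 (protease nexin-1) had 16.0 and 15.6 FPKM in WT and 14.5 and 15.3 in KO. Both KO libraries were slightly under both WT libraries, and the log2 change was −0.08 (SE 0.057, 95% interval −0.21 to 0.05, limma adjusted p = 0.265). SERPINB2 (plasminogen activator inhibitor 2) was near the limit of detection, with 4, 2, 11 and 7 fragments in WT replicate 1, WT replicate 2, KO replicate 1 and KO replicate 2, or 0.0391, 0.0392, 0.0996 and 0.0592 FPKM. Per assigned fragment the KO to WT ratio was 2.01, with an exact 95% interval of 0.765 to 6.19 that covers counting error only, so no difference was detectable at this depth. The summed FPKM of PLAU and PLAT over that of SERPINE2 and SERPINB2 was 5.73 and 5.88 in WT and 12.8 and 12.2 in KO.

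LRP1, the clearance receptor, had 4.32 and 3.31 FPKM in WT and 7.55 and 7.24 in KO. The WT libraries differed more from each other than those of the other called members, with WT replicate 2 the lower, but both remained under the KO libraries. The means were 3.82 ± 0.712 and 7.39 ± 0.219 FPKM (SD, n = 2 each), 1.94-fold apart, and the log2 change was 0.81 (SE 0.099, 95% interval 0.57 to 1.04, limma adjusted p = 0.000725). Of the tested genes 1.51% had a change at least as high. Without WT replicate 2 the log2 change was 0.66, and without WT replicate 1 it was 0.96. LRP1 is the longest member, at 14923 bp of exons, and over genes above 8 kb the median log2 difference of WT replicate 2 from WT replicate 1 was −0.08, against 0.10 for genes up to 1 kb. After removal of such a length trend LRP1 still rose, by 0.72, and S100A10, the shortest member at 671 bp, by 0.67.

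**Figure D2:**
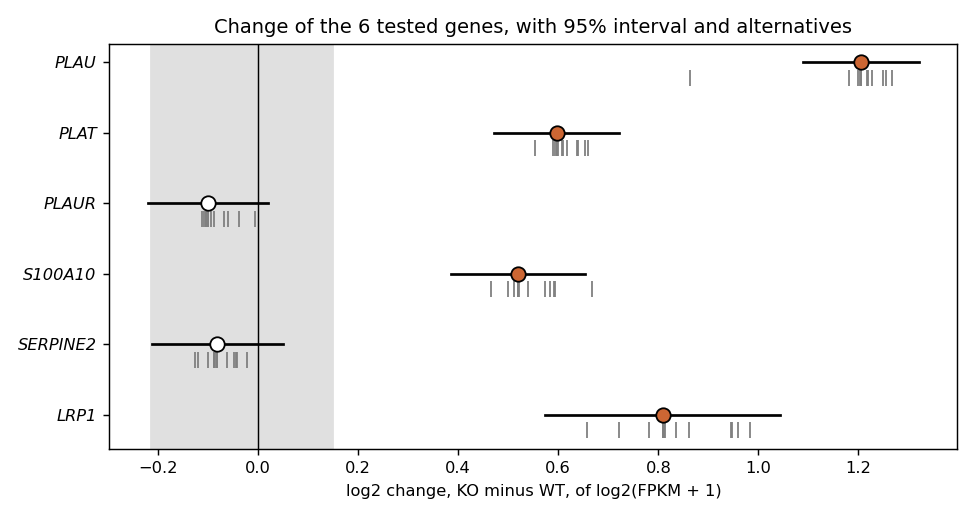
Log2 change (horizontal axis, KO minus WT, of log2(FPKM + 1)) of the 6 tested genes, with the 95% interval and the values under the 16 alternative analyses; the grey band holds the middle 50% of all tested genes. PLAU, LRP1, PLAT and S100A10 lie to the right of the band, at 1.20, 0.81, 0.60 and 0.52, whereas PLAUR and SERPINE2 lie within it.

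The order of FPKM levels was the same in all 4 libraries: S100A10, then PLAU, PLAT, PLAUR, SERPINE2, LRP1 and SERPINB2. Bulk RNA cannot tell apart more cells expressing a gene from more RNA per cell. Summed FPKM of the fibroblast marker list was 3.12 and 3.24 in WT and 4.51 and 4.21 in KO, and both tested genes of the list were called higher, COL1A1 by 0.37 (limma adjusted p = 0.00341) and PDGFRB by 0.19 (adjusted p = 0.0438). The other fibroblast markers, COL3A1, DCN and LUM, had at most 2 fragments per library. Endothelial markers summed to 1.05 to 1.07 FPKM in WT and 1.40 to 1.44 in KO, and leukocyte markers to 1.64 to 1.75 and 1.05 to 1.30. PECAM1, the only tested endothelial marker, was called higher by 0.26 (limma adjusted p = 0.0105). VWF, CDH5 and TEK were below the expression filter. The part of these low values in the results was not tested.

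**Figure D3:**
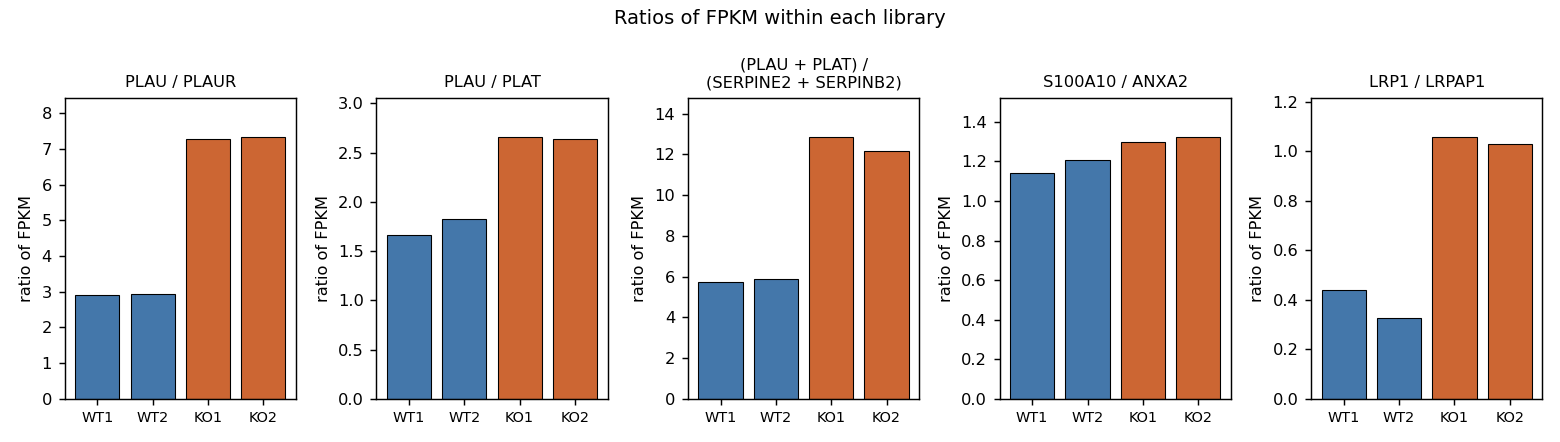
Ratios of FPKM within each library (bars from 0; WT and KO replicates 1 and 2) for 5 pairs of activators, receptors, inhibitors and partner proteins. The ratio of PLAU to PLAUR is 2.90 and 2.94 in WT and 7.29 and 7.33 in KO.

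Position on the chromosome differed between the members that rose. PLAU lies on chromosome 10 (73909182 to 73917497, plus strand), and of the 33 other tested genes within 2 Mb 26 were called higher and 0 lower, with a median log2 change of 0.40. VCL, which encodes the focal-adhesion protein vinculin and lies 80619 bp away, had 51.8 and 46.2 FPKM in WT and 83.2 and 86.6 in KO (log2 change 0.78, limma adjusted p = 7.63e-05). CAMK2G, 34600 bp away on the other side, had 7.72 and 7.62 FPKM in WT and 10.5 and 10.6 in KO (log2 change 0.41, adjusted p = 0.000617). With the median of the 20 Mb bin subtracted VCL stood at 0.44 (adjusted p = 0.00200) and CAMK2G lost its call (0.07, adjusted p = 0.303). PLAU had the highest change of the 34, and after subtraction of the median of its 20 Mb bin its log2 change was 0.86 (limma adjusted p = 7.01e-05; up to 0.00393 over the alternatives). The part of the surrounding region in the PLAU value was not otherwise tested.

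The other members that rose did not lie among genes that mostly rose. Around LRP1 (chromosome 12, 57128483 to 57213361, plus strand) 4 of 72 genes within 2 Mb were called higher and 36 lower, with a median of −0.20, and LRP1 ranked 1 of 73. Around PLAT (chromosome 8, 42174718 to 42207565, minus strand) 2 of 16 were higher and 2 lower, with PLAT ranking 1 of 17. Around S100A10 (chromosome 1, 151982915 to 151993859, minus strand) 14 of 65 were higher and 16 lower, and S100A10 ranked 7 of 66. Of the S100 genes in that window, S100A2 (1.75), S100A4 (1.20), S100A6 (0.93) and S100A13 (0.53) ranked above it. S100A5 was called higher with a smaller change (0.32). S100A11 (0.08), S100A3 (−0.04) and S100A16 (−0.03) were not called. PLAUR (chromosome 19, 43646095 to 43670197, minus strand) had 9 of 70 neighbours higher and 28 lower. SERPINE2 (chromosome 2, 223975045 to 224039286, minus strand) had 0 of 7 higher and 1 lower, and SERPINB2 (chromosome 18, 63887705 to 63903890, plus strand) 0 of 6 higher and 2 lower.

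**Figure D4:**
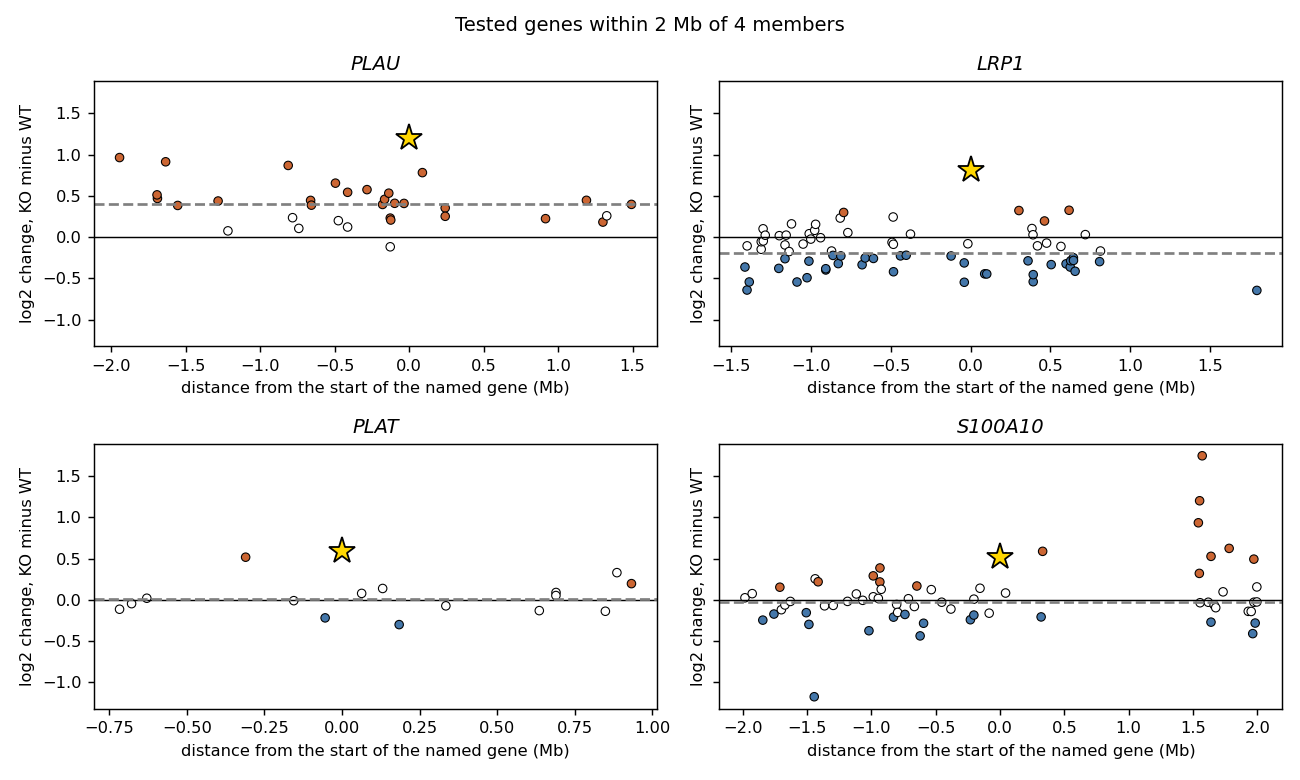
Log2 change (vertical axis, KO minus WT) of tested genes within 2 Mb of the start of 4 members (horizontal axis, distance in Mb), with the member as a star and the median of the other genes as a dashed line. The dashed line stands at 0.40 around PLAU and at −0.20 around LRP1.

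Some members overlap other genes in their span, and the strand setting of the counting is not given in the sources used here. Overlap of exons was not examined. C10orf55, antisense to PLAU, had 0.320 to 0.377 FPKM in WT and 0.497 to 0.501 in KO, far under PLAU itself. LRP1-AS, antisense to LRP1, and MIR1228, on the same strand as LRP1, had 0 in all libraries. A gene without a symbol, antisense to S100A10, had 0.0373 and 0.0499 FPKM in WT and 0.0259 and 0.0296 in KO.

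The stretches in front of the transcription starts were read from RefSeq promoters on GRCh38.p14, where the members other than PLAT were matched by symbol, PLAT not being used. The 250 bases before each start were searched on both strands for 5 short motifs. Over 35116 such stretches, the AP-1 motif TGANTCA was held by 6.57%, the GC box GGGCGG by 42.6%, the CCAAT box by 32.0%, the TATA box TATAAA by 10.7% and the ETS motif CCGGAAG by 8.52%. The sequences below show 1 of the starts of PLAU and the start of LRP1, the members with the largest changes, and the motif of S100A10, beside the AP-1 matches of PLAUR and SERPINB2, with motif matches in capitals, 5′ to 3′ on the gene's own strand.
PLAU, chr10:73910882-73911103, plus strand: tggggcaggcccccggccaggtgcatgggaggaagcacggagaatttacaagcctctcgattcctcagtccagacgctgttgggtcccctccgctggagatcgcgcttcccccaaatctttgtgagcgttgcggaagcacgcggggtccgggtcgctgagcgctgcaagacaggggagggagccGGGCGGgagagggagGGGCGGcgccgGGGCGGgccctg
LRP1, chr12:57128233-57128482, plus strand: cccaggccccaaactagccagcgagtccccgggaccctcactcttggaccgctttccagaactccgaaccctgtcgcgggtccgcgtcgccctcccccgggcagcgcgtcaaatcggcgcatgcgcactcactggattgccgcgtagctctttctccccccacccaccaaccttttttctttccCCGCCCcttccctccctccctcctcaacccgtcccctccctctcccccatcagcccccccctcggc
S100A10, chr1:151994011-151994036, minus strand: gctctgtctgGGGCGGgcgaggcctc
PLAUR, chr19:43670339-43670365, minus strand: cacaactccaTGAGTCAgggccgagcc
SERPINB2, chr18:63887593-63887619, plus strand: agtaaaatgtTGAATCActcaaaggac

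The PLAU stretch held 3 GC boxes, 35, 46 and 61 bases before the start at 73911132, and no AP-1 match. The printed PLAU stretch ends where an annotated exon begins. LRP1 held 1 GC box on the other strand, 61 bases before its start, and S100A10 held 1, 162 bases before. The other PLAU start searched, at 73910610, had no GC box and 1 CCAAT box. Bases further in front of these starts were not searched, nor those before 73909182, where the span of PLAU begins. SERPINE2, which was not called, had 1 GC box and 7 CCAAT boxes before its start at 224031478. Before its start at 224038640 it had 2 GC boxes. The AP-1 match TGAGTCA lay 180 bases before the PLAUR start, and TGAATCA lay 96 bases before that of SERPINB2. PLAUR was not called changed, and SERPINB2 was below the expression filter and not tested. The stretches of PLAUR and S100A10 lie wholly within exons of the GENCODE annotation (250 of 250 bases each). These are matches of letters, and no binding was measured.

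Outside the members, lists of other genes of the pathway held 88 genes, of which 48 were tested, and 20 were called higher, 7 lower and 21 neither. Their median log2 change was 0.08, against −0.04 over all tested genes, of which 21.6% were called higher and 28.4% lower. The counts of the single lists below are to be read beside these shares. PLG, plasminogen itself, had 0, 0, 0 and 1 fragments.

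Of 5 tested plasminogen-binding proteins 2 rose and 0 fell. ANXA2, the partner of S100A10, had 344 and 351 FPKM in WT and 446 and 449 in KO (log2 change 0.36, limma adjusted p = 0.000723), and ENO1, a glycolytic enzyme that also binds plasminogen at the surface, had 802 and 796 in WT and 996 and 982 in KO (0.31, adjusted p = 0.00209). Both lost the call when the median of their 20 Mb bin was subtracted (0.13, limma adjusted p = 0.0651, and 0.11, adjusted p = 0.0954, the highest adjusted p of each over the alternatives). The ratio of S100A10 to ANXA2 was 1.14 and 1.21 in WT and 1.30 and 1.32 in KO.

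Of 7 tested partners of the urokinase receptor 4 rose and 0 fell: the integrin subunits ITGB1, ITGAV, ITGB5 and ITGA3. ITGB1 had 151 and 118 FPKM in WT and 248 and 264 in KO (log2 change 0.93, SE 0.12, limma adjusted p = 0.00334), with WT replicate 2 the lowest. The other integrins named here were chosen after their values were seen, with log2 changes of 0.44, 0.41 and 0.21. ITGAV lost its call without the expression filter (adjusted p = 0.0644), and that of ITGA3 ended when KO replicate 1 was left out (0.19, adjusted p = 0.117), and also with KO replicate 2 left out (0.24, adjusted p = 0.0611). EGFR, which signals with the receptor, had a log2 change of 0.15 (adjusted p = 0.174), which depended on the WT libraries. It was 0.27 without WT replicate 1 and 0.03 without WT replicate 2.

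**Figure D5:**
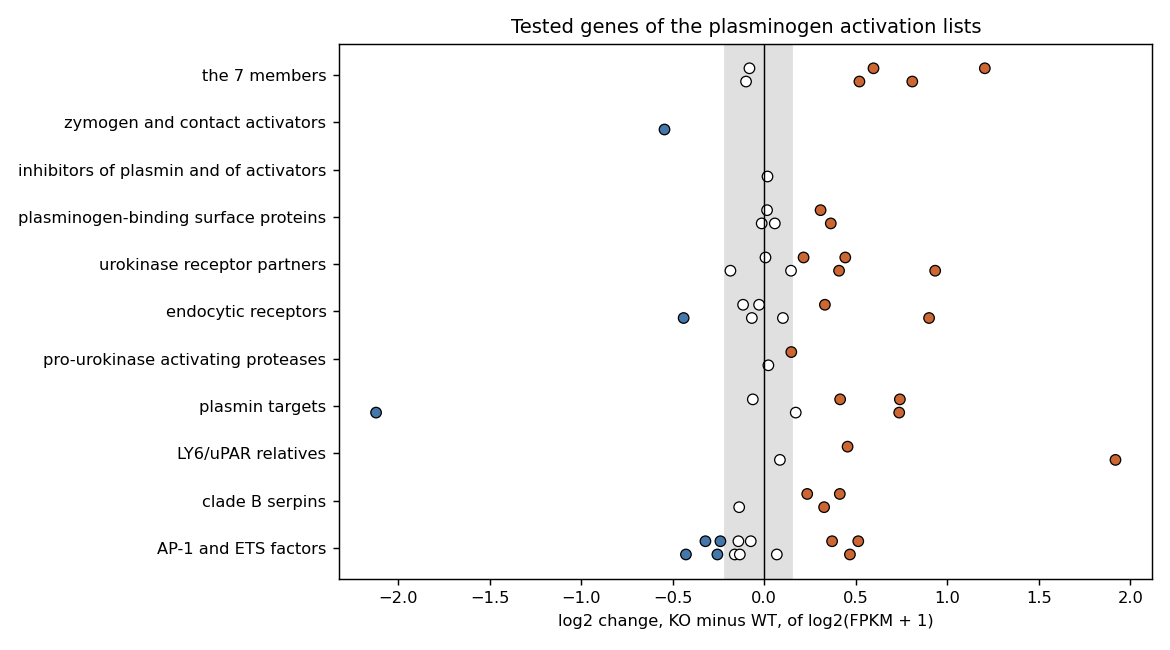
Log2 change (horizontal axis, KO minus WT) of the tested genes in each list; filled points are called higher (orange) or lower (blue) and open points are not called, and the grey band holds the middle 50% of all tested genes. Calls go both ways among plasmin targets, from −2.12 for MMP1 to 0.74 for FN1 and LTBP1.

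Among 7 tested endocytic receptors and their partners 2 rose and 1 fell. MRC2 (uPARAP, a collagen receptor that binds the urokinase receptor complex) had 6.80 and 7.05 FPKM in WT and 14.2 and 13.4 in KO (log2 change 0.90, SE 0.059, limma adjusted p = 2.32e-05). LRP8 rose by 0.33 (adjusted p = 0.00319), a call lost when the bin median was subtracted (0.10, adjusted p = 0.241). LRPAP1, the chaperone of LRP1 in the secretory pathway, had 9.83 and 10.1 FPKM in WT and 7.15 and 7.05 in KO (−0.44, adjusted p = 0.000483). That fall was also lost with the bin median subtracted (−0.04, adjusted p = 0.579). LRP8 and LRPAP1 were named after their values were seen. The FPKM ratio of LRP1 to LRPAP1 was 0.440 and 0.327 in WT and 1.06 and 1.03 in KO, so it was higher in both KO libraries. This is a ratio of RNA, and the proteins were not measured.

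Plasmin targets moved in both directions, with 3 of 6 tested genes higher and 1 lower. FN1 (fibronectin) had 91.4 and 73.2 FPKM in WT and 135 and 140 in KO (log2 change 0.74, limma adjusted p = 0.00254), and LTBP1, which anchors latent TGF-beta in the matrix, had 11.5 and 9.82 in WT and 18.2 and 18.6 in KO (0.74, adjusted p = 0.000210). MMP1, an interstitial collagenase whose zymogen plasmin can activate, had 6.84 and 6.34 FPKM in WT and 0.666 and 0.827 in KO, with a log2 change of −2.12 (adjusted p = 1.75e-06). MMP1 passed the expression filter through the WT libraries alone, and it is the 1 lower call of this list.

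Of the proteases that activate pro-urokinase 1 of 2 tested rose, CTSB, by 0.15 (limma adjusted p = 0.0377), and the call was lost in 5 alternatives, with adjusted p up to 0.226. CTSL did not pass, at 0.02. The only tested gene of the zymogen and contact list was F12, a coagulation factor that can start plasminogen activation, with 2.88 and 3.74 FPKM in WT and 2.17 and 1.71 in KO (−0.55, adjusted p = 0.0108), and its call was lost without the expression filter (adjusted p = 0.0593). SERPINI1, the tested inhibitor, stood at 0.02. A2M had 5, 0, 0 and 0 fragments.

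Relatives of the members rose in part. In the family of PLAUR 2 of 3 tested genes were higher, LYPD6B with 1.26 and 1.50 FPKM in WT and 8.05 and 7.92 in KO (log2 change 1.92, limma adjusted p = 1.75e-06) and LYPD6 by 0.46 (adjusted p = 0.000983; named after its value was seen). In the family of SERPINB2 3 of 4 were higher, SERPINB1 by 0.41 (adjusted p = 0.000526), SERPINB6 by 0.33 (adjusted p = 0.00227) and SERPINB9 by 0.23 (adjusted p = 0.00989), the last lost without KO replicate 2 (0.21, adjusted p = 0.111) and named after its value was seen. SERPINB8 had a change of −0.14 (adjusted p = 0.0881).

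AP-1 and ETS factors, known regulators of PLAU, changed in both directions, with 3 of 12 higher, 4 lower and a median of −0.14. These counts are near the shares over all tested genes, 21.6% higher and 28.4% lower. FOS had 3.01 and 3.19 FPKM in WT and 4.83 and 4.87 in KO (log2 change 0.51, limma adjusted p = 0.000328). Chosen after their values were seen, JUN rose by 0.47 and FOSB by 0.37, and JUNB fell by 0.43, ETV4 by 0.32, ETV5 by 0.26 and FOSL1 by 0.24. FOSB and JUNB lost the call without the expression filter (adjusted p = 0.0651 and 0.0535), and FOSL1 and ETV5 in 3 alternatives each.

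The genes with the pattern nearest to each member were those with the smallest Euclidean distance of centred log2(FPKM + 1) over the 4 libraries. For PLAU they were S100A4 (0.0414), WNT9A (0.0460) and LPCAT2 (0.0679), and for LRP1 KLHL2 (0.0426), HUWE1 (0.0688) and H6PD (0.0710). For PLAT they included SPIN4 and MBNL3, and for S100A10 RUFY1, CASZ1 and CNIH3. For PLAUR they were PITX3, ANO2 and IL37, all under 1 FPKM, and for SERPINE2 ADM2, STT3A and ENTPD4. With 4 libraries in 2 groups such nearness is chiefly a like difference between groups.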

How the data were processed

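RNA of cultured MDA-MB-231 cells was sequenced, and the 4 libraries were grouped by title as WT or KO (2 each). STAR, Subread and DESeq2 are named, without versions, in the submitters' processing notes. Not given in the sources used here are the genome build, the annotation and the strand setting. Per the file headers, FPKM per gene were deposited. FPKM times length had the same sum in every library, and division by the smallest product above 0 gave whole numbers for all values (tolerance 0.001), from which fragments were computed. Symbols came from RefSeq by Entrez ID for 37708 genes (96.0%), and 98.4% of genes on 1 chromosome lay within 1000 bp of GRCh38.p14. Columns of other samples numbered 0.

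The test was limma 3.58.1 (R 4.3.3), with a trended and robust prior, on log2(FPKM + 1), KO minus WT, in genes whose mean reached 1 FPKM, Benjamini-Hochberg adjusted over 11716 genes, threshold 0.05. The members and lists were chosen with earlier results of these data known. Named genes were the members and RIOX2, from each list every called gene with an absolute log2 change of at least 0.5 or else the 2 largest changes, the 3 nearest patterns and the nearest tested neighbours of each member. Alternatives covered the pseudocount, filter, scaling, fit, each library left out, blocks, 20 Mb bins and gene length. The fit was tested on simulated data. Intervals on fragments cover counting error only. Some genes that the rule or the counts include are not reported here.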

Additional observations from a re-analysis of the deposited data

How the results depend on the processing

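PLAU, PLAT, S100A10 and LRP1 were called higher, and no member lower, in each of the 16 alternatives, of which the length trend and the crossed pairing were chosen after seeing the data. PLAU ranged from 0.86 to 1.27 on the log2 scale, PLAT from 0.55 to 0.66, S100A10 from 0.47 to 0.67 and LRP1 from 0.66 to 0.98. PLAUR and SERPINE2 were called in none. Leaving out 1 library moved the counts over all tested genes, from 1542 to 3104 higher and from 1996 to 3973 lower (2527 and 3323 with all libraries), with the lowest counts without KO replicate 2. Without WT replicate 2 the pathway genes called lower numbered 12 in place of 7 (range 5 to 12), and the cause was not tested. With each library left out in turn SERPINI1 ranged from −0.0205 to 0.0547 and CTSL from −0.0294 to 0.0743, changing sign without WT replicate 1 and KO replicate 2, and neither was called. Genes within 2 Mb of PLAU called higher went from 26 to 8 when the bin median was subtracted. With a replicate block the PLAU change was 1.20 and the members numbered 4 higher and 0 lower; same-numbered libraries did not deviate together (r = −0.225 over 11716 genes, which are not independent), and the crossed pairing called 2839 higher and 3821 lower. The block also ended the call of CTSB (adjusted p = 0.103). With 2 libraries per group the fit borrows the spread from all genes, and SERPINB2 is limited by depth.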

Other observations

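Genes of the lists below the expression filter, chosen after their values were seen, are given here as values. The formyl peptide receptor FPR1, a partner of the urokinase receptor on leukocytes, had 1 and 2 fragments in WT and 54 and 52 in KO, a ratio of 23.7 per assigned fragment (exact 95% interval 7.89 to 117, counting error only). Its limma adjusted p was 0.00957 without the filter. FPR2 had 0 and 1 fragments in WT and 11 and 22 in KO. SORL1, a sorting receptor that binds the urokinase receptor system, had 0.332 and 0.254 FPKM in WT and 1.34 and 1.46 in KO, a ratio of 4.58 per assigned fragment (exact 95% interval 3.98 to 5.29). ITGAM, the integrin chain of leukocytes, went the other way, with 36 and 26 fragments in WT and 16 and 9 in KO. In the limma fit without the filter, 31 of the 40 pathway genes below it could be fitted. Of these, 3 were called higher (FPR1, SORL1 and SERPINB5) and 5 lower (MMP3, ST14, LYPD3, FGG and CD177). Over all 25798 genes of that fit 4904 were called, 45.7% of them higher. MMP3, stromelysin-1, had 17 and 8 fragments in WT and 0 and 5 in KO (adjusted p = 0.0301), and LRP2 had 30 and 7 in WT and 2 and 4 in KO and was not called (adjusted p = 0.140).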
